A study of Mus musculus with 2 samples.

Results

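Flt3- and Flt3+ progenitors of the mouse thymus were compared among cells that carried little mitotic RNA. The cells were chosen by measured values: a cell was kept when it held at least 3000 UMIs (unique molecular identifiers, the counted RNA molecules), when the 10 mitotic genes Mki67, Top2a, Cdk1, Ccnb1, Ccnb2, Ccna2, Ube2c, Birc5, Nusap1 and Cenpf together made up under 0.05% of its UMIs, and when under 3 of the 6 granulocyte genes Mpo, Elane, Prtn3, Ctsg, Ms4a3 and Cebpe were detected. These rules left 937 of 1205 Flt3- cells and 841 of 1412 Flt3+ cells, 1778 of the 8293 barcodes of the series. The 16 genes that chose the cells are described below and support nothing.

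All cells came from the thymus of C57BL/6 mice of genotype Bcl11byfp/yfp, which carry a yellow fluorescent reporter at both copies of Bcl11b, a factor needed for commitment to the T lineage. The number and age of the mice were not given in the sources used here. Both sorts lacked lineage markers, the dead-cell dye 7AAD, CD25 and the Bcl11b reporter, and were Kit+, Ly6d- and HSA- (HSA is the CD24 antigen). By gate they differed in surface Flt3 alone. Each sort was stained with its own hashtag, an antibody that carries a barcode, and all sorts ran together in 1 single-cell 3' library, so there was 1 sort of each kind and no repeated sort. No difference could be tested against a spread between sorts. Intervals in parentheses are 95% intervals of the counts (exact binomial for ratios and shares, Poisson for levels) and cover counting error only.

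Early thymic progenitors are the first cells of the thymus that receive Notch signals and begin the T-cell program, while they can still form other blood lineages. Flt3 is the receptor for a growth factor of multipotent and lymphoid progenitors, and its loss from the surface is commonly used to mark a later progenitor. Cells in mitosis carry many transcripts of the spindle and of chromosome segregation, and cells with such RNA were left out here.

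The cells kept held 9367264 UMIs in the Flt3- sort and 11534637 in the Flt3+ sort, with medians of 9314 and 13020 UMIs and 2832 and 3413 genes per cell. The median share of mitochondrial RNA was 4.92% and 4.42%. Over the mitotic threshold lay 11.6% of Flt3- cells and 37.9% of Flt3+ cells with at least 3000 UMIs, and over the granulocyte threshold 12.3% and 7.47%. Just inside the mitotic threshold, at 0.04% to 0.05%, were 12 Flt3- and 32 Flt3+ cells, and just outside it, at 0.05% to 0.06%, 6 and 21. No mitotic UMI was found in 61.9% of the kept Flt3- cells and 40.3% of the kept Flt3+ cells. Mitotic RNA thus remained in both sorts. The shares without a mitotic UMI were taken at full depth, and the Flt3+ cells were deeper. Top2a, which untangles chromosomes, stood at 28.9 CPM (UMIs of the gene per 1e+06 UMIs of the sort) in Flt3- and 50.02 CPM in Flt3+ cells. The mitotic kinase Cdk1 stood at 9.50 and 20.6 CPM, while Cenpf went the other way, at 9.61 and 7.98 CPM. Summed over the 10 mitotic genes, the level was 73.98 CPM in Flt3- and 125.6 CPM in Flt3+ cells. Since these genes chose the cells, no conclusion is drawn from their levels. Of the granulocyte genes of the rule, Mpo, myeloperoxidase, was still at 334 CPM in Flt3- and 196 CPM in Flt3+ cells, and Elane, neutrophil elastase, at 1.601 and 1.214 CPM. At full depth only 12.7% of the kept Flt3- and 22.1% of the kept Flt3+ cells had none of the 6 genes detected. The kept cells with 2 of them numbered 170 and 116.

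Tcf7, Cpa3, Cd160, Scin and Deptor were among the genes higher in Flt3- cells, and Ccr9, Hopx, Flt3, Hmga2 and Clspn among those lower. Tcf7, the Notch-induced gene for the T-lineage factor TCF-1, stood at 164 CPM against 42.6, and Cpa3, which encodes a mast cell carboxypeptidase and is also made by early blood progenitors, at 229 CPM against 26.2. Ccr9, through which progenitors sense a thymic chemokine, was 8.90-fold lower in Flt3- cells, at 6.09 against 54.2 CPM. The size rule asked that the sorts be 2-fold or more apart, and that in the higher sort the gene reach 20 CPM and be seen in 5% or more of cells after each was thinned to 3000 UMIs. By it 36 of 5653 genes, 0.637%, were higher in Flt3- cells and 41, 0.725%, were lower. Over all 9195 genes at 5 CPM or more in either sort the median log2 ratio was 0.04, and 91.3% lay within 1.5-fold.

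**Figure D1:**
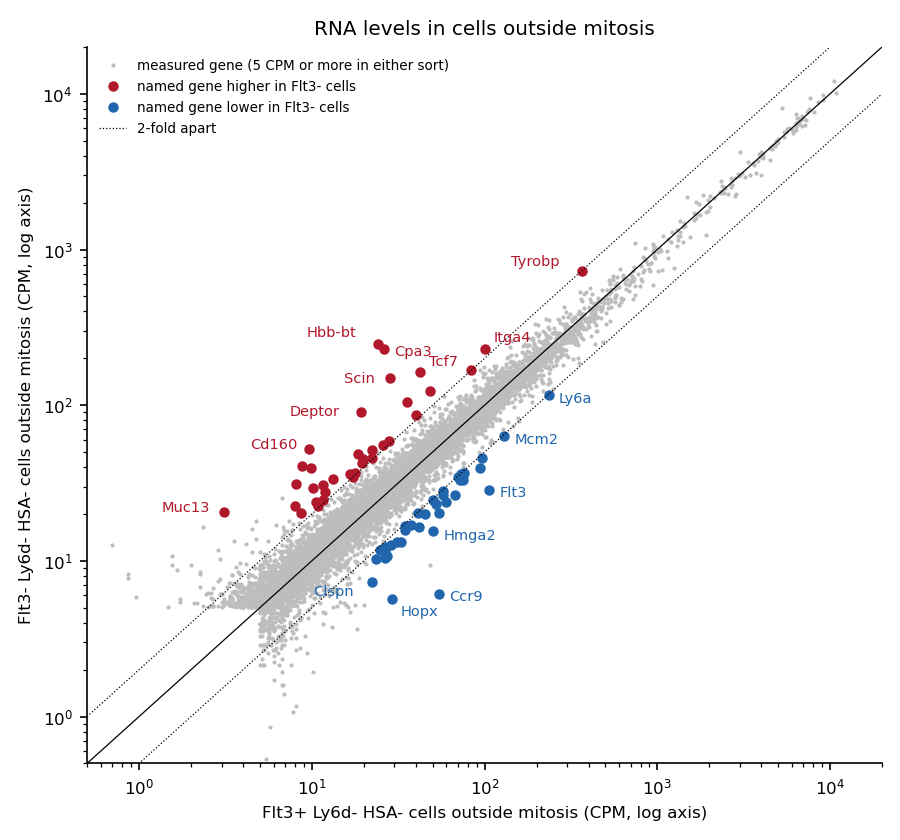
Level of each measured gene in Flt3+ (x axis) and Flt3- (y axis) cells outside mitosis, in CPM on log axes, without genes at 0 in either sort. Red and blue points are nameable genes past the size rule, such as Tcf7 at 164 against 42.6 CPM above the diagonal and Ccr9 at 6.09 against 54.2 CPM below it.

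The gates were checked first in RNA. Flt3 itself was at 28.4 CPM (25.1 to 32.0) in Flt3- cells and 107 CPM (100.8 to 113) in Flt3+ cells, 3.76-fold lower in Flt3- cells. Flt3 RNA was thus reduced in the Flt3- sort and still present. A Flt3 UMI among 3000 was found in 8.32% of Flt3- cells (6.64 to 10.3) and 26.9% of Flt3+ cells (23.9 to 30.0), and at full depth in 22.6% and 71.3%. Of cells with at least 5 of the 6 granulocyte genes, which should lack Flt3, 0 of 92 in the Flt3- sort (up to 3.93%, at a median of 29861 UMIs before thinning) and 1.82% of 55 in the Flt3+ sort (median 41207 UMIs) held one. Kit, a receptor that both sorts had to carry, was at 116 CPM in Flt3- and 78.5 CPM in Flt3+ cells, 1.48-fold higher. Cd24a, which encodes HSA, was at 114 and 94.3 CPM, and Ly6d at 14.5 and 26.1 CPM. Bcl11b was near 0 in both, with 3 and 5 UMIs in all. Il2ra, which encodes CD25, had been gated out of both sorts at the surface, yet stood at 12.7 CPM (119 UMIs) in Flt3- cells and 0.694 CPM (8 UMIs) in Flt3+ cells, a ratio of 18.3 (9.0004 to 43.4).

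Of the T-lineage regulators, 5 of 18 measured genes were higher by 1.5-fold or more in the Flt3- sort, none was lower by as much, and the median log2 ratio was 0.37. Over all measured genes 4.82% were at least 1.5-fold higher and 3.93% lower. After Tcf7, at 3.85-fold (3.47 to 4.27), came Zfpm1, a cofactor of GATA factors, at 22.5 against 7.98 CPM (2.82-fold), and Ikzf2, the Ikaros-family factor Helios, at 124 against 48.0 CPM (2.58-fold). Tox, a high-mobility-group factor of developing T cells, stood at 115 against 58.4 CPM (1.97-fold) and Gata3, required for the T lineage, at 35.9 against 21.1 CPM (1.70-fold). The other 13 measured members lay within 1.5-fold, from Sox4, at 1.49-fold higher, to Cbfb, the partner of the Runx factors, at 1.19-fold lower. Runx1, Runx2, Runx3, Myb, Ikzf1 and Satb1 were among them, and Lef1, related to Tcf7, was at 5 and 2 UMIs. Most of the list was therefore within 1.5-fold while a few regulators stood apart.

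A Tcf7 UMI among 3000 was found in 34.3% of Flt3- cells (31.2 to 37.4) and 12.2% of Flt3+ cells (10.1 to 14.7), and at full depth in 64.9% and 33.9%. In cells with at least 5 granulocyte genes it was found in 1.09% (0.0275 to 5.91, Flt3- sort) and 1.82% (0.0460 to 9.72, Flt3+ sort), so both sorts lay above those shares. Those cells were far deeper before thinning (medians of 29861 and 41207 UMIs) and need not give the background of the kept cells. In the mm10 build Tcf7 lies on chromosome 11 from 52252371 to 52283014, on the minus strand. The Notch pathway list lay nearer to level. Of 15 measured Notch pathway genes, 2 were higher, none was lower and the median log2 ratio was 0.15: Dtx1, a Notch target, at 10.8 against 1.56 CPM (6.91-fold, 4.16 to 12.1), and the coactivator Maml1 at 8.33 against 5.55 CPM, 1.501-fold on 78 and 64 UMIs. The receptor Notch1 was at 176 and 140 CPM, the targets Hes1 at 182 and 148 CPM and Nrarp at 18.7 and 16.04 CPM, and the DNA-binding partner Rbpj at 42.6 and 40.2 CPM. Of the Notch targets listed, Dtx1 stood far apart, whereas Hes1 and Nrarp lay within 1.5-fold. Dtx1 passed 5 CPM only through the Flt3- sort, so the filter in part set its count.

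Genes of the T-cell receptor and its assembly went in both directions: 1 of 11 measured was higher and 3 were lower. Cd7, a surface protein of T and NK progenitors, was at 177 against 99.8 CPM, 1.78-fold higher. Dntt, the enzyme that adds bases to receptor gene junctions, was at 765 against 1249.8 CPM, 1.63-fold lower. Rag2, a subunit of the recombinase, stood at 5.02 against 13.3 CPM (2.64-fold lower), and Thy1, a surface antigen of thymocytes, at 4.70 against 11.6 CPM (2.47-fold lower). The CD3 chains Cd3d, Cd3e and Cd3g had 2 to 7 UMIs in either sort and lay under the 5 CPM needed to count as measured.

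RNA of some mast cell, erythroid and NK cell markers was higher in Flt3- cells, and its part in the other differences was not tested. Of 11 mast cell and basophil genes 4 were measured, of which Cma1, Mcpt8 and Cpa3 were at least 1.5-fold higher and Hdc, which makes histamine, was at 5.76 and 5.03 CPM. The median log2 ratio of the 4 was 3.19, which the filter set in part, since Cma1 and Mcpt8 passed 5 CPM only through the Flt3- sort. The summed level of the 11 genes was 268 CPM in Flt3- and 32.2 CPM in Flt3+ cells. Cpa3 made up most of it, at 8.73-fold (7.74 to 9.88), and a Cpa3 UMI among 3000 was found in 37.9% of Flt3- and 6.78% of Flt3+ cells (62.2% and 20.3% at full depth). Cells with at least 5 granulocyte genes did not lack Cpa3 in the Flt3- sort, where 32.6% held a UMI, against 3.64% in the Flt3+ sort. Cma1, a mast cell chymase, had 205 UMIs in 5 Flt3- cells and none in the Flt3+ sort, at least 84.1-fold by a floor of 3 counts over the Flt3+ sort. The mast cell and basophil genes Fcer1a, Tpsb2, Tpsab1 and Prss34 were at 0 in both sorts, and Kcne3 had 11 and 1 UMIs, Mcpt4 4 and 0 and Ms4a2 21 and 0. At full depth a Mcpt8 UMI was found in 30 Flt3- and 10 Flt3+ cells. Few cells carried more than 1 of these genes besides Cpa3: 7 Flt3- cells and no Flt3+ cell had UMIs of at least 2 mast cell or basophil genes other than Cpa3. Those 7 held every Cma1 UMI, 51.9% of the Mcpt8, 66.1% of the Gzmb and 27.3% of the Gata2 UMIs of the Flt3- sort, but 6.07% of the Cpa3 UMIs. Without them Cpa3 was 8.25-fold higher and Mcpt8, a basophil protease, 4.58-fold (9.48-fold with them).

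Of 6 measured erythroid and megakaryocyte genes, 4 were at least 1.5-fold higher (Itga2b, Hbb-bt, Zfpm1 and Gfi1b), and the median log2 ratio was 1.29. Zfpm1 was also counted with the T-lineage regulators and Gfi1b with the stem and progenitor regulators, and Itga2b passed 5 CPM only through the Flt3- sort. Hbb-bt, an adult beta globin, was at 249 against 24.1 CPM (10.3-fold), and 32 Flt3- cells and 3 Flt3+ cells with 20 or more UMIs of it held 81.8% and 34.9% of its UMIs. The alpha globins Hba-a1 and Hba-a2 were at 0 in both sorts, and the erythroid regulators Gata1 (8 and 1 UMIs) and Klf1 (3 and 7 UMIs) were near 0. Itga2b, the platelet integrin chain also found on progenitors, was at 5.76 against 0.433 CPM (54 and 5 UMIs). Gfi1b, a zinc finger repressor of the megakaryocyte and erythroid lines, was at 24.4 against 11.5 CPM, 2.12-fold higher. Another beta globin, Hbb-bs, had 2 and 1 UMIs, so Hbb-bt stood alone among the globins of the list.

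NK and innate lymphoid genes were higher in 7 of 11 measured cases and lower in none, with a median log2 ratio of 1.01. That median was 0.74 in cells with under 0.1% of their UMIs from S phase genes (6 of 11 higher, 1 lower), 0.02 at 0.1% to 0.3% (4 of 9 higher) and 0.18 at 0.3% or more (3 of 9 higher, 2 lower), and -0.01 in the mitotic cells left out (3 of 8 higher). Over all measured genes, 523 of 9255 were at least 1.5-fold higher and 400 lower under 0.1%, and 404 and 403 of 9123 at 0.1% to 0.3%. At 0.3% or more the all-gene counts were 824 and 667 of 9220, and in the mitotic cells left out 947 and 834 of 9230. Cd160, an NK receptor, was at 52.4 against 9.62 CPM (5.45-fold), and the signalling adaptors Fcer1g and Tyrobp at 105 against 35.6 CPM (2.95-fold) and 732 against 364 CPM (2.01-fold). Fcer1g and Tyrobp are also expressed by myeloid cells. Among cells with at least 5 granulocyte genes, 60.9% and 70.7% held a UMI of them among 3000 in the Flt3- sort. In the Flt3+ sort 58.2% and 87.3% did. Ccl5, a chemokine, was at 34.7 against 13.3 CPM, with 43.1% of its Flt3- UMIs in 10 cells, and Rora, a nuclear receptor of innate lymphoid cells, at 8.43 against 3.73 CPM, with 57.0% of its UMIs in 10 cells. Gzmb, granzyme B, had 109 UMIs, 77.1% of them in 10 cells, against 3, a ratio of 44.7 (14.9 to 220). Both Gzmb and Rora passed 5 CPM only through the Flt3- sort. Of the defining regulators, Eomes had 8 and 0 UMIs, Tbx21 5 and 0, Ncr1 5 and 0 and Zbtb16 24 and 0. Nkg7, a granule protein also made by early progenitors, was level at 442 and 433 CPM, and so was Ctla2a at 685 and 706 CPM.

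Granulocyte and monocyte genes outside the cell rule summed to 203 CPM in both sorts. Fcgr3, an IgG receptor, was the large exception, at 16.5 against 2.34 CPM (7.07-fold), and Ccr2, a chemokine receptor, was at 7.15 against 4.68 CPM. Both passed 5 CPM only through the Flt3- sort. S100a8 had 3 and 5 UMIs, and S100a9 and Ngp none. Cd74, the class II invariant chain, was at 16.9 against 10.2 CPM, but 5 Flt3- cells with at least 3 antigen presentation genes held 76.6% of its Flt3- UMIs. Without those cells (and 1 such Flt3+ cell) Cd74 stood on the other side, at a ratio of 0.387. Of B cell genes only Cd79b was measured, at 53.3 and 50.5 CPM, and of thymic epithelial genes none was, with 5 of 7 at 0 in both sorts.

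Other named genes with large ratios follow. Muc13, a transmembrane mucin, was at 20.6 against 3.12 CPM (6.602-fold), Scin, the actin-severing protein scinderin, at 148 against 28.4 CPM (5.22-fold), and Qrfp, a neuropeptide precursor, at 40.6 against 8.76 CPM (4.63-fold). Deptor, an inhibitor of mTOR, was at 90.7 against 19.2 CPM (4.71-fold), and Dhrs3, a retinaldehyde reductase, at 39.3 against 9.88 CPM (3.97-fold). Olfm5 (3.84-fold), Arhgap6 (2.89-fold), Chn2 (2.65-fold), the lectin receptor Clec4e (2.62-fold), Arap2 (2.54-fold), Bpifc (2.35-fold), Tspan9 (2.34-fold) and Tbc1d4, which regulates glucose transporter traffic (2.32-fold), completed the 20 largest ratios with those above. Scin was spread over many cells: 34.3% of Flt3- and 9.99% of Flt3+ cells held a UMI of it among 3000 (59.0% and 24.3% at full depth), against 2.17% and 0 of the granulocyte-gene cells. The inhibitory receptor Lag3 (2.15-fold) and Siglecf, a sialic acid receptor (2.25-fold), passed the size rule as well.

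Growth restraint genes were higher in 5 of 15 cases and lower in none, with a median log2 ratio of 0.31: Deptor, Ddit4, induced by stress and an inhibitor of mTOR (1.86-fold), the antiproliferative Btg1 (259 against 145 CPM, 1.79-fold), and the factors Klf2 (1.52-fold) and Klf6 (1.51-fold). Within ranges of S phase RNA the list was not one-sided: 2 were higher and 1 lower under 0.1%, 1 and 1 at 0.1% to 0.3%, and 2 and 3 at 0.3% or more, at medians of 0.32, 0.05 and 0.11. In the mitotic cells left out 8 of 15 were higher and 1 lower, at a median of 0.59. With only the mitotic rule dropped 7 of 15 were higher and none was lower, at 0.39. Over all measured genes 947 of 9230 were higher and 834 lower in the mitotic cells, and 652 and 588 of 9239 with that rule dropped. The all-gene counts of the ranges are given with the NK list above. Among 13 measured G1 genes, Cdkn1a, the kinase inhibitor p21, was at 9.61 against 4.16 CPM (2.31-fold) and Cdkn2d at 30.6 against 16.6 CPM (1.85-fold), while cyclin D1, Ccnd1, was at 21.99 against 43.6 CPM (1.98-fold lower) and E2f1, a transcription factor of S phase entry, at 12.7 against 28.7 CPM (2.26-fold lower). Of 12 immediate early genes, Egr1 (36.0 against 16.7 CPM), Fosb (28.7 against 14.8 CPM) and Fos (235 against 141 CPM) were at least 1.5-fold higher and none was lower, with a median of 0.43. From low to high S phase RNA that median was 0.15 (2 of 12 higher, 1 lower), 0.27 (2 of 12 higher) and 0.19 (0 of 11 higher). In the mitotic cells left out it was 0.68 (9 of 12 higher, none lower). With only the mitotic rule dropped it was 0.61 (7 of 12 higher, none lower). None of 10 Bcl2 family genes differed by 1.5-fold, and the median log2 ratio there was 0.04.

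Cytokine receptor and signalling genes were higher in 6 of 23 cases: Socs3 (1.88-fold), Stat3 (77.7 against 41.5 CPM, 1.87-fold), Il12rb2 (1.83-fold), Il17rb (1.79-fold) and the TGF-beta receptors Tgfbr2 (1.67-fold) and Tgfbr1 (1.52-fold). Il6ra, the interleukin 6 receptor, was 1.84-fold lower on 30 and 68 UMIs. The median log2 ratio of the list was 0.22. It was not one-sided within ranges of S phase RNA. Under 0.1% 4 were higher and 2 lower, at 0.1% to 0.3% 2 and 3, and at 0.3% or more 5 and 5. The medians there were 0.16, 0.02 and 0.24. Over all measured genes 523 of 9255 were higher and 400 lower under 0.1%, and 404 and 403 of 9123 at 0.1% to 0.3%. At 0.3% or more the all-gene counts were 824 and 667 of 9220. In the mitotic cells left out 6 of 22 list members were higher and 1 lower, at 0.22, beside 947 and 834 of 9230 genes. In all kept cells Il7r, the interleukin 7 receptor, was at 19.2 and 21.5 CPM, and Il2rg, the common gamma chain, at 75.2 and 67.0 CPM. The homing list split. Itga4 and Itgb7, which pair as a homing integrin, were both higher, at 230 against 101 CPM (2.28-fold) and 90.1 against 51.2 CPM (1.76-fold). Ccr9 and Ccr7, 2 chemokine receptors that bring progenitors into the thymus, were both lower, Ccr7 at 2.46 against 6.07 CPM on 23 and 70 UMIs. Of the Ccr9 UMIs in the Flt3- sort, 47.4% lay in 10 cells. Cd44, an adhesion receptor, was at 95.2 and 119.7 CPM.

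Stem and progenitor regulators stood around level, with 3 of 21 higher, 3 lower and a median log2 ratio of 0.06. Hmga2, a chromatin protein of fetal and young progenitors, was at 15.5 against 50.2 CPM (3.24-fold lower), Hoxa9 at 57.3 against 108 CPM (1.88-fold lower) and Meis1, its partner, at 15.4 against 27.2 CPM (1.77-fold lower). Gata2 (11.7 against 2.86 CPM, with 54.5% of its Flt3- UMIs in 10 cells), Gfi1b and Id2, an inhibitor of E proteins (36.2 against 18.8 CPM), were higher. Gata2 passed 5 CPM only through the Flt3- sort. Spi1, Lyl1, Hhex, Mef2c and Lmo2, the progenitor factors that are shut off at commitment, all lay within 1.5-fold, at ratios of 1.23, 1.27, 1.15, 0.991 and 0.873. Cd34 was at 391 and 507 CPM. Hopx, a small homeodomain cofactor, was at 5.66 against 29.0 CPM (5.13-fold lower), and Ly6a, the stem cell antigen Sca-1, at 116 against 235 CPM (2.02-fold lower).

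**Figure D2:**
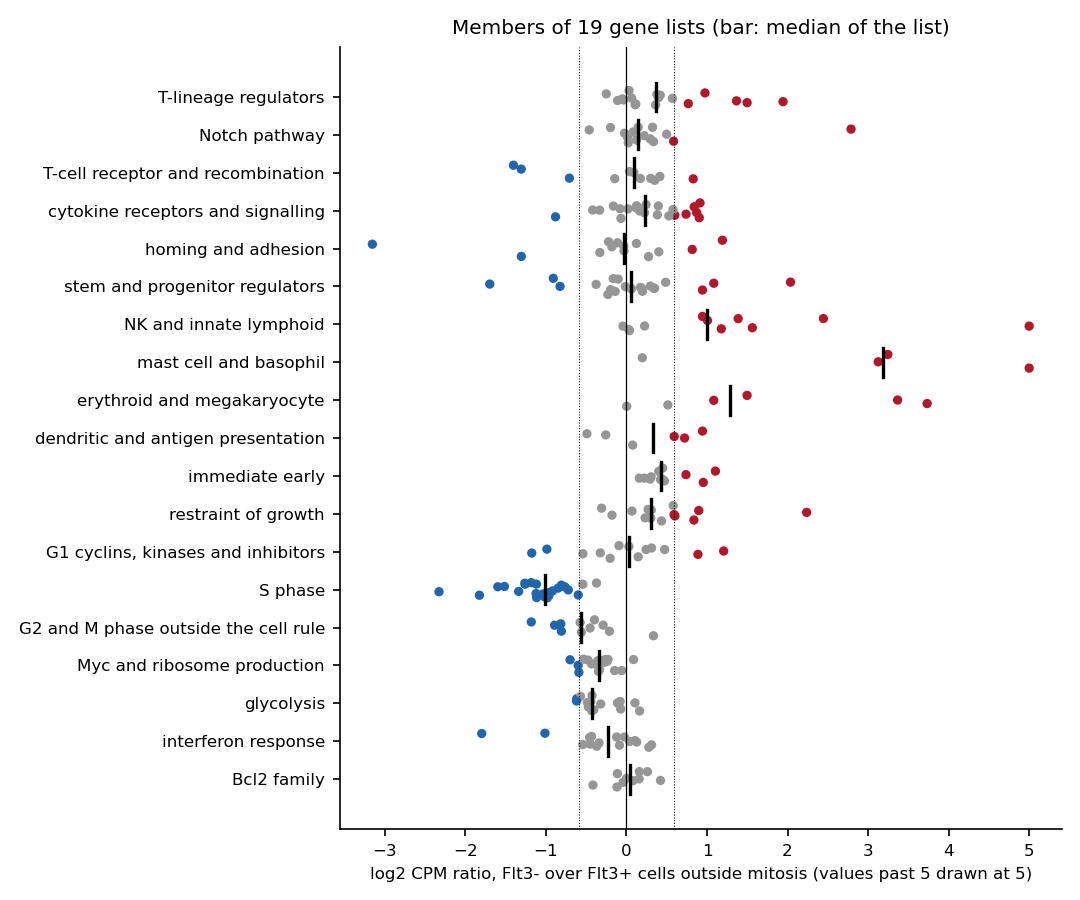
Log2 CPM ratio of Flt3- over Flt3+ cells (x axis) for the measured members of 19 gene lists, with the median of each list as a bar and 1.5-fold as dotted lines. The S phase list sits lowest, at a median of -1.01, and the T-lineage list at 0.37 with Tcf7, Zfpm1 and Ikzf2 to the right. Cma1 and Gzmb, whose ratios lie past the limit set for drawing, are drawn at that limit.

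S phase genes, which the cell rule did not use, were lower in Flt3- cells in 23 of 25 measured cases and higher in none, with a median log2 ratio of -1.01. The median share of UMIs from S phase genes was 0.0773% in Flt3- cells and 0.202% in Flt3+ cells. Rrm2, a subunit of ribonucleotide reductase, was at 3.63 against 18.2 CPM (5.02-fold lower), Clspn, a checkpoint adaptor, at 7.37 against 22.3 CPM (3.02-fold lower), Uhrf1, which carries DNA methylation through replication, at 26.6 against 67.2 CPM (2.53-fold lower) and Ung, uracil glycosylase, at 39.5 against 94.7 CPM (2.40-fold lower). The helicase subunits Mcm2 to Mcm7 were 1.65-fold (Mcm6) to 2.05-fold (Mcm2) lower. Dtl and Slbp, at 1.29-fold and 1.46-fold lower, were the 2 members within 1.5-fold. Lig1, DNA ligase (2.27-fold), Tyms, thymidylate synthase (2.27-fold), Timeless (2.25-fold) and Fignl1 (2.48-fold) were lower too, as were the centromere proteins Apitd1 (2.56-fold) and Cenph (2.52-fold). Genes with no known role in DNA replication were also among the 20 largest named differences in this direction: Ttc13 (2.54-fold), Prdx4, a peroxidase of the secretory pathway (2.50-fold), Ifngr2, a chain of the interferon gamma receptor (2.36-fold), Siglece, a sialic acid receptor (2.28-fold), and Cox6a2, a subunit of cytochrome oxidase (2.27-fold).

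Since S phase RNA went with the gate, the cells were also divided by it, a choice made after the ratios were seen. Of Flt3- cells 598 held under 0.1% of S phase RNA, 263 from 0.1% to 0.3% and 76 at least 0.3%, against 244, 336 and 261 of Flt3+ cells. Such a division holds S phase genes near each other by construction, and Mcm2 was then 1.06-fold, 1.18-fold and 1.09-fold lower. The ranges divide the same cells whose ratios chose the 36 higher and 41 lower genes. Counts of these genes that keep their side are therefore in part set by that choice. The 36 genes higher in Flt3- cells stayed higher in each range, and 30 of them were at least 1.5-fold higher in all 3. Tcf7 was 2.83-fold (2.40 to 3.35), 3.26-fold and 3.40-fold higher, Cpa3 6.34-fold, 6.48-fold and 8.30-fold, Scin 4.82-fold, 4.92-fold and 4.59-fold, and Itga4 2.12-fold, 1.99-fold and 2.18-fold. Of the 41 lower genes 14 were at least 1.5-fold lower in all 3 ranges, among them Ccr9, Hopx, Flt3, Hmga2, Ctss, Ttc13, Il12a, Ifngr2, Cox6a2, Adgrl4, Ly6a and Prdx4. Flt3 was 4.49-fold, 3.91-fold and 3.41-fold lower and Hmga2 2.78-fold, 3.04-fold and 3.49-fold, while Ccr9 was 7.54-fold lower in the first range, 21.2-fold in the second and had 0 UMIs in the 76 Flt3- cells of the third. Tox, at 2.01-fold, 1.43-fold and 1.29-fold, and Egr1, at 2.45-fold, 1.63-fold and 1.14-fold, stood farthest apart in the first range.

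**Figure D3:**
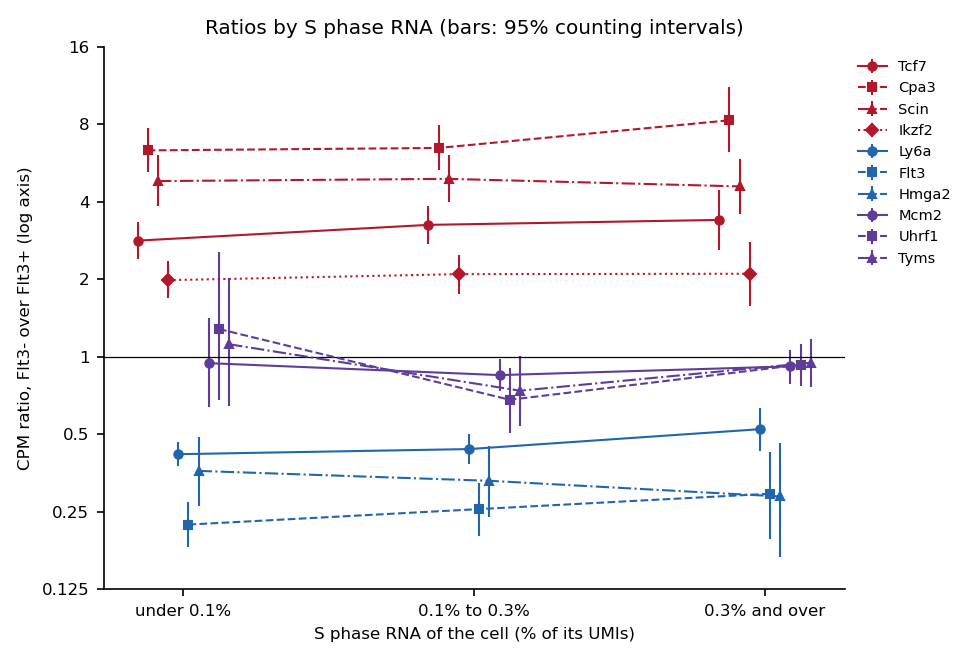
CPM ratio of Flt3- over Flt3+ cells on a log axis, for cells split by the share of S phase RNA in their UMIs, with 95% counting intervals. Tcf7, Cpa3, Scin and Ikzf2 stay above 1 and Ly6a, Flt3 and Hmga2 below it in each range, while Mcm2, Uhrf1 and Tyms of the list that defined the ranges lie near 1.

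Several other lists differed between ranges of S phase RNA. The counts over all measured genes in each range are given with the NK list above. The Myc and ribosome production list had a median log2 ratio of -0.34 in all kept cells, with 3 of 18 lower, and medians of 0.03, -0.11 and -0.07 in the 3 ranges from low to high, with 0, 1 and 0 lower. Glycolysis genes had a median of -0.43 in all kept cells, with 2 of 15 lower, and medians of -0.06, -0.23 and -0.22 in the ranges, with 0, 1 and 2 lower and 1 higher in the last. Of these Gapdh was at 1241 against 1904 CPM in all kept cells, and Ncl, nucleolin, at 723 against 912 CPM. In the interferon list 2 of 16 were lower in all kept cells, at a median of -0.23, and 8 of 16, 6 of 16 and 5 of 15 in the ranges, at medians of -0.61, -0.42 and -0.09. Under 0.1% Isg15 was at 54.8 against 107 CPM, Oasl2 at 32.1 against 64.4 CPM and Irf7 at 44.1 against 68.1 CPM. Ifitm1, Ifitm2 and Ly6e, which are expressed without interferon in many cells, were within 1.5-fold in that range. Of the Ifit1 and Ifit3 UMIs of the Flt3- sort alone, over all its kept cells, 57.0% and 94.4% lay in 10 cells. These shares leave out the Flt3+ sort, where Ifit3 was higher (ratio of 0.288).

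Many genes of DNA copying are targets of the E2F factors, and 4 of the promoters of the S phase list that held an E2F run are shown because that list stood lowest (RefSeq, GRCm38.p6, 250 bases before the start, written in the direction of the gene). Capitals mark TTTCCCGC or TTTGGCGC, or the same run on the other strand. The window and motifs were chosen with the ratios known.
Cdc6, which loads the helicase, 2.39-fold lower, chr11:98907901-98908150, plus strand: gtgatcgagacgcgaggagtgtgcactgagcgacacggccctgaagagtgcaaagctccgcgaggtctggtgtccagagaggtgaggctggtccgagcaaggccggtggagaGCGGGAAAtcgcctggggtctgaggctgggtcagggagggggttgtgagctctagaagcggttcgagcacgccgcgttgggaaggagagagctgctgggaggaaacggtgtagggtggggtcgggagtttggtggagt
Hells, a chromatin helicase, 2.18-fold lower, chr19:38930740-38930989, plus strand: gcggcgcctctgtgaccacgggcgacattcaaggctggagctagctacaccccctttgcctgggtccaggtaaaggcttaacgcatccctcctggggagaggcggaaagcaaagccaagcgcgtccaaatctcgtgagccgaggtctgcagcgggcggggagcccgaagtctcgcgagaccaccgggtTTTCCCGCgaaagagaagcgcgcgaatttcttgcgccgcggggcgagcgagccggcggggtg
Mcm5, a helicase subunit, 1.99-fold lower, chr8:75109259-75109508, plus strand: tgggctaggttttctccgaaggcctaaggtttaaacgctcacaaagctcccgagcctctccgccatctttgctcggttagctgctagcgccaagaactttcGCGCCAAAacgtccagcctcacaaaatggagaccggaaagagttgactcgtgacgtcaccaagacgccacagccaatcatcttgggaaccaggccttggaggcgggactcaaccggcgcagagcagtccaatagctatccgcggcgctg
Mcm6, a helicase subunit, 1.65-fold lower, chr1:128359706-128359955, minus strand: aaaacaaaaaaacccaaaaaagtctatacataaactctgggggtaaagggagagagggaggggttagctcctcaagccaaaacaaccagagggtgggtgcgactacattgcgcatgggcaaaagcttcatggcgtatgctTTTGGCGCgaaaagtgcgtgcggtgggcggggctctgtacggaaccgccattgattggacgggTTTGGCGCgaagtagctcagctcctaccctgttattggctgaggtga

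Of the 26 promoters found for 23 genes of the S phase list, 6 held an E2F run (23.1%: Cdc6, Dtl, Hells, Mcm5, Mcm6 and Mcm7), against 1.30% of all 32851 promoters in the table and 2.80% of the 9142 promoters of measured genes. Of the 37 promoters found for genes lower in Flt3- cells, 2 did (5.41%), Hells and Hopx. For genes higher in Flt3- cells 1 of 41 promoters, that of Gfi1b, held the E2F run (2.44%). There the run GTGGGAA, bound by the Notch partner RBPJ, was found in 3 of 41 promoters (7.32%: Zfpm1, Cd160 and Arhgap6), against 5.42% of all promoters and 5.06% of those of measured genes. RBPJ runs were in none of the 37 promoters of lower genes and in 2 of the 26 of the S phase list. The GATA run AGATAAG was in none of the 41, 37 and 26 promoters, against 2.74% of all. The TCF run ATCAAAG was in 1 of the 37, that of Flt3, and in none of the 41 and 26, against 3.21% of all. Both strands were searched, promoters were found for 27 of the 36 higher and 31 of the 41 lower genes, and a match describes letters and not binding. The Zfpm1 promoter is shown because it held the RBPJ run at 2 places, in capitals.
Zfpm1, the GATA cofactor, 2.82-fold higher, chr8:122281891-122282140, plus strand: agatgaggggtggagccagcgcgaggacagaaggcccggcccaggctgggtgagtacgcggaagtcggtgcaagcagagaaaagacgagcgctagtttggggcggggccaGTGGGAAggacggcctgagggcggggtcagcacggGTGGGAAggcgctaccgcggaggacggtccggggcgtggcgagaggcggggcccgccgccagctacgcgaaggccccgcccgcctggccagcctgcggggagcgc

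The mitotic rule alone was then dropped and the granulocyte rule kept, a choice made after the ratios were seen, which left 1017 Flt3- and 1300 Flt3+ cells. In them 59 genes were higher and 141 lower, against 36 and 41 outside mitosis. Of the 36 higher genes 34 were among the 59, and of the 41 lower genes 36 were among the 141. The larger set holds all 937 kept Flt3- and 841 kept Flt3+ cells, so this overlap is in part built in. The number of genes that could pass the size rule in the larger set was not counted. G2 and M phase genes outside the rule were lower in 25 of 25 cases, at a median log2 ratio of -2.06, with mitotic cells kept, and in 4 of 11, at -0.56, without them. S phase genes were lower in 25 of 26 cases at a median of -1.10 and in 23 of 25 at -1.01, so they were lower with and without mitotic cells. The T-lineage list held 6 of 18 higher genes at a median of 0.40 with mitotic cells and 5 of 18 at 0.37 without. In the mitotic cells left out it held 4 of 18 higher and 1 lower, at 0.12. Over all measured genes 652 of 9239 were at least 1.5-fold higher and 588 lower with mitotic cells. In the mitotic cells left out the all-gene counts were 947 and 834 of 9230. In the ranges of S phase RNA, from low to high, 4, 3 and 3 of 18 T-lineage genes were higher and none was lower. The medians there were 0.23, 0.18 and 0.23. Tcf7 was 4.69-fold higher with mitotic cells, 3.85-fold without, and 4.34-fold (3.43 to 5.48) in the 80 and 459 mitotic cells left out. Cpa3 was 9.83-fold, 8.73-fold and 8.28-fold higher in the same order. Scin, at 4.003-fold, 5.22-fold and 2.71-fold higher, Hbb-bt, at 7.36-fold, 10.3-fold and 2.89-fold higher, and Flt3, at 3.29-fold, 3.76-fold and 2.21-fold lower, were least apart in the mitotic cells. With neither rule, in all cells with at least 3000 UMIs (1160 and 1405), 34 genes were higher and 92 lower.

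**Figure D4:**
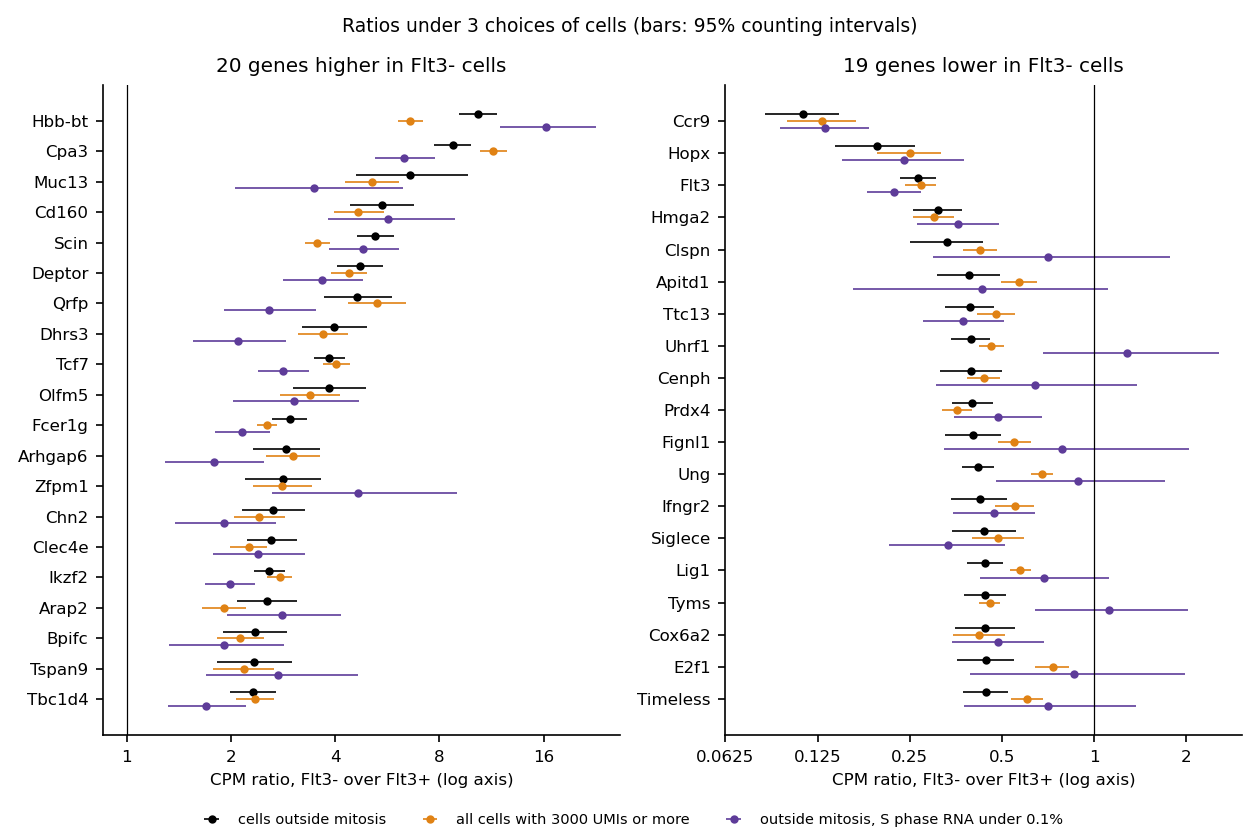
CPM ratio (log axis) of named genes with the largest differences in each direction, in cells outside mitosis (black), in all cells with at least 3000 UMIs, where neither the mitotic nor the granulocyte rule applies (orange) and in cells outside mitosis with S phase RNA under 0.1% (purple), with 95% counting intervals. Cpa3 stands at 8.73 outside mitosis, 11.5 with neither rule and 6.34 at low S phase RNA, and Uhrf1 at 1.28 at low S phase RNA and below 1 in the other sets.

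The other 2 gated sorts give the levels a second place to be seen, in 444 Flt3+ HSA+ and 689 Flt3- Ly6d+ cells that passed the same rules. That pair differs by Ly6d and HSA as well as by Flt3 and is not a replicate. In the order Flt3+, Flt3+ HSA+, Flt3- and Flt3- Ly6d+, Tcf7 stood at 42.6, 56.2, 164 and 232 CPM. Cpa3 stood at 26.2, 44.7, 229 and 244 CPM, Itga4 at 101, 128, 230 and 351 CPM, Scin at 28.4, 50.3, 148 and 177 CPM, and Il2ra at 0.694, 2.67, 12.7 and 33.8 CPM. Flt3 stood at 107, 79.1, 28.4 and 14.5 CPM, Ccr9 at 54.2, 27.4, 6.09 and 2.23 CPM and Hmga2 at 50.2, 57.6, 15.5 and 10.4 CPM. In each of these the 2 Flt3- sorts stood together on one side of the 2 Flt3+ sorts. Of the 36 genes higher in Flt3- cells, 26 also passed the size rule in the second pair, where 54 genes were higher (0.951% of 5681), so that 72.2% of the 36 and 48.1% of the 54 were shared, and 35 were at least 1.5-fold higher. Of the 41 lower genes, 27 passed it among the 49 of that pair (0.863%), 65.9% of the 41 and 55.1% of the 49, and 38 were at least 1.5-fold lower. Egr1 (1.21-fold higher in the second pair), Ly6a (1.29-fold lower there), Cox6a2 (1.06-fold higher) and the predicted gene Gm4955 (1.16-fold lower) did not keep 1.5-fold, and were named after their values were seen. Ly6a stood at 235, 161, 116 and 125.1 CPM and Egr1 at 16.7, 14.2, 36.0 and 17.2 CPM. The immediate early list had a median log2 ratio of 0.16 in the second pair, with 1 of 12 higher and 1 lower. Over all genes measured in that pair 584 of 9236 were at least 1.5-fold higher and 492 lower.

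**Figure D5:**
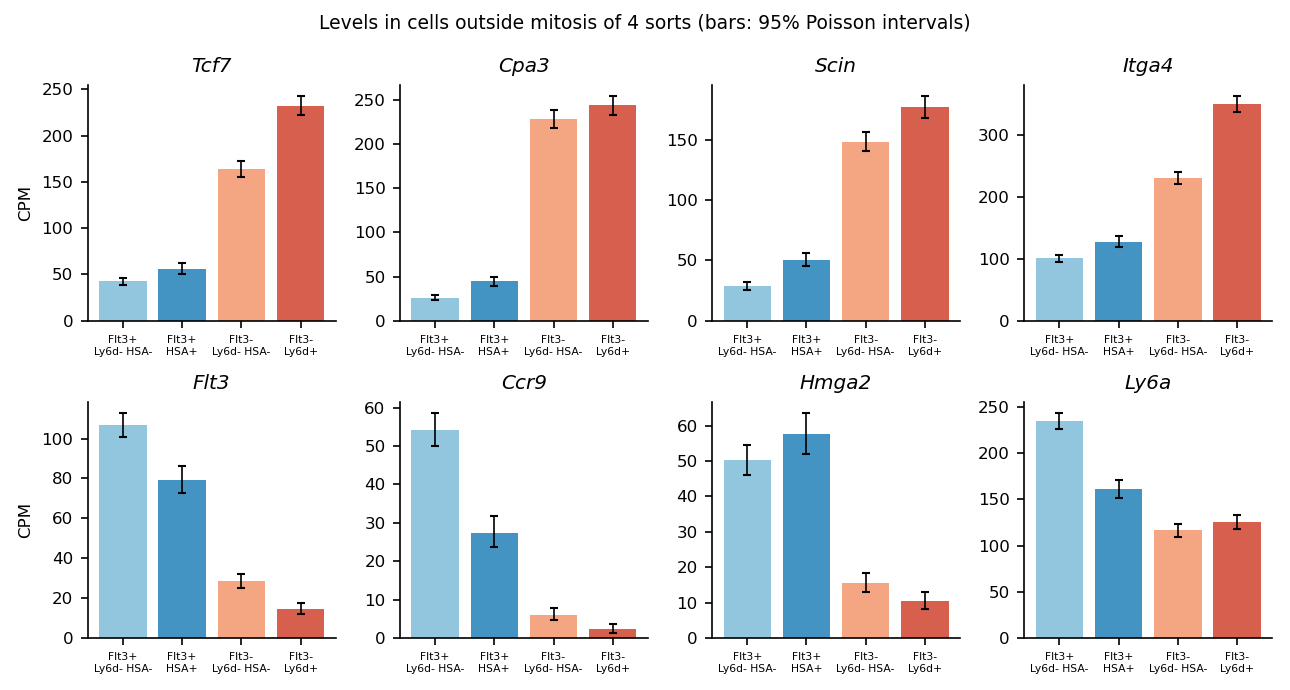
Levels in CPM, from 0, of 8 genes in cells outside mitosis of the 4 gated sorts, with 95% Poisson intervals. Tcf7, Cpa3, Scin and Itga4 are higher in both Flt3- sorts (orange and red) than in both Flt3+ sorts (blues), and Flt3, Ccr9 and Hmga2 lower, while Ly6a is at 116 and 125.1 CPM against 235 and 161 CPM.

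Genes were also counted together in the same cells. The pairs were chosen after the ratios were seen, and each cell was thinned to 3000 UMIs. Cpa3 was found in 41.7% (36.3 to 47.4) of the 321 Flt3- cells with a Tcf7 UMI and in 35.9% (32.1 to 39.8) of the 616 without. Scin was found in 40.8% (35.7 to 46.2) of the 355 cells with a Cpa3 UMI and 30.2% (26.5 to 34.2) of those without, and Gata2 in 5.63% (3.47 to 8.57) and 1.20% (0.485 to 2.46). Flt3 was found in 4.67% (2.64 to 7.59) of Flt3- cells with Tcf7 and 10.2% (7.95 to 12.9) of those without, and Dntt in 75.1% and 76.1%. In Flt3+ cells, Flt3 was found in 26.2% of those with Tcf7 and 27.0% of those without, and Deptor in 13.6% (7.63 to 21.8) and 5.28% (3.78 to 7.15). Cells with and without a UMI differed in depth (medians of 8554 and 9795 UMIs for Tcf7 in the Flt3- sort), and its part in these shares was not tested.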

How the data were processed

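Each sort's RNA was read in 1 single-cell 3' cDNA library, with a hashtag library to assign cells to sorts. The deposited matrix holds counts per gene and barcode (27998 genes, 8293 barcodes), whole numbers with no normalization, made with Cell Ranger 3.0 against mm10 per the submitters' processing notes. The authors' assignment of barcodes to sorts was used as deposited, the sources used here do not state its rule, and the hashtag counts of the authors were used to check it (the assigned hashtag was a median of 98.9% and 99.3% of a kept cell's tags, and at least 92.7%). The 345 unassigned barcodes stayed out of every comparison. Doublets within 1 sort were not called.

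UMIs were summed over the kept cells of each sort and scaled to CPM. The 26 gene lists, the members and the size rule were chosen with earlier results of these data known, and named genes were the 20 largest ratios in each direction past the size rule, without predicted genes, genes of mitochondrial or ribosomal proteins and genes of the cell rule, plus gate genes and list members at 5 CPM or more in either sort. A list member counted at 1.5-fold. A member under 5 CPM in 1 sort passed the filter through the other sort alone, which set its count in part. Examples are Dtx1, Rora, Gata2, Cdkn1a, Fcgr3 and Ccr2 among the higher genes, and Thy1, Ccr7, Il6ra and Rrm2 among the lower. Chosen after the ratios were seen were the ranges of S phase RNA from 0.1% up, the sets without mast-like or antigen-presenting cells, the set with only the mitotic rule dropped, the second pair of sorts, the pairs of genes seen in the same cell, and the promoter window and motifs. Coordinates were from GENCODE M21 (452 of 452 genes found). No test was run, since there was 1 sort per group. The ratio and interval code was tested on simulated data. Python 3.11.15, numpy 2.4.6, scipy 1.17.1, edgeR 4.0.16 and DESeq2 1.42.0 (for scale factors only) were used. Alternatives were other scales, filters on cells and genes, and mitotic and granulocyte thresholds. Some items that these rules would name are not reported here.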

Additional observations from a re-analysis of the deposited data

Results flagged for a closer look

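The difference between Flt3- and Flt3+ cells outside mitosis went the other way in the second pair of gated sorts, Flt3- Ly6d+ over Flt3+ HSA+, for Ly6d and Cd74; neither difference was tested. Ly6d was 1.80-fold lower in Flt3- cells and had a ratio of 23.8 in the second pair, whose Flt3- sort was gated Ly6d+. Cd74 was 1.65-fold higher in Flt3- cells and had a ratio of 0.172 in the second pair, and a few cells held most of its UMIs in the Flt3- sort.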

How the results depend on the processing

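The limits are depth, 1 sort per gate and the cell rule: the Flt3- cells are shallower, the counts cover counting error only and the mitotic rule leaves S phase RNA. No paired analysis was possible because there was 1 library and no result comes from a test. The 36 genes higher in Flt3- cells and 41 genes lower in Flt3- cells became, in all cells with at least 3000 UMIs (neither the mitotic nor the granulocyte rule), 92 lower; without the granulocyte rule, 23 lower; at a mitotic share under 0.1%, 65 lower; in cells of 5000 to 20000 UMIs, 26 lower; at S phase RNA under 0.1%, 24 lower; and with every cell thinned to 3000 UMIs, 59 higher. In cells with none of the 6 granulocyte genes (119 and 186 cells) 142 were higher and 125 lower, at 50 CPM 15 and 21, with no filter on low values 718 and 617, at a ratio of 1.5 177 and 147, and at S phase RNA of 0.1% to 0.3% 22 and 16 and with only the mitotic rule dropped 59 and 141 (both added after the data were seen). With TMM or DESeq2 scale factors 30 were higher, and 50 and 49 lower. All 77 genes kept their side under each of the settings run except the 3 ranges of S phase RNA, in which 73, 75 and 71 did. Each setting reused, in whole or in part, the cells that chose these genes, so those counts are in part built in.

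Of the 151 genes past the size rule or at least 1.5-fold apart, the ratio of 33 crossed 1 in the following cases, and the cause was not tested; of the 179 other list members, all within 1.5-fold in the kept cells, 117 crossed it under at least 1 setting. Without the granulocyte rule Pgam1 stood at 1.02; with no granulocyte gene Ccne2 at 1.20, Il17rb at 0.683 and Maml1 at 0.844; at a mitotic share under 0.02% Birc5 at 1.04; thinned, Ckap2 at 1.01; and Cd74 at 0.518 without its 10 top cells and 0.387 without antigen-presenting cells. At S phase RNA under 0.1%, which removes S phase RNA by construction, Mcm3 was at 1.35, Cdca8 at 1.73, Tyms at 1.12, Mki67 at 1.13, Mcm5 at 1.07, Cdc6 at 1.21, Top2a at 1.15, Birc5 at 4.25, Chaf1b at 1.15, Chaf1a at 1.26, Uhrf1 at 1.28 and Hells at 1.25. At 0.1% to 0.3% Clspn was at 1.02, 2810417H13Rik at 1.03, Maml1 at 0.984, Ccl5 at 0.757, Top2a at 1.10, Chaf1b at 1.20 and Cd74 at 0.590. At 0.3% or more Mcm6 was at 1.02, Srm at 1.03, Tacc3 at 1.08, Lig1 at 1.05, Siglece at 1.12, Rrm1 at 1.01, Maf at 0.821, Chek1 at 1.22, Rora at 0.808, Maml1 at 0.224, Ccl5 at 0.752, Atad2 at 1.04, Rmi2 at 1.10, Cdc45 at 1.003, Chaf1a at 1.04 and Cd74 at 0.555.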
